A study of Homo sapiens with 3 samples.

Results

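The ERBB receptors and their ligands were described in T47D cells, a human line of luminal breast carcinoma that expresses the estrogen receptor, after knockdown of the long noncoding RNA ERINA. The 10 genes were taken by symbol from the 58039 genes of the deposited table and comprised 4 receptors (EGFR, ERBB2, ERBB3, ERBB4) and 6 ligands (AREG, EREG, TGFA, HBEGF, BTC, NRG1). Of these, 7 reached a mean of at least 1 FPKM (fragments scaled to transcript length and library size, which allows levels of different genes to be compared) over the 3 libraries and entered the test, and 3 (EREG, BTC, NRG1) did not. The libraries were 1 from cells with shRNA1 against ERINA, 1 from cells with shRNA2 against ERINA, and 1 control. All were T47D cells, and the labels describe lentiviral delivery of the vectors and puromycin selection of stable cells. The control is named shCtrl in one label, while its shRNA field reads None. Neither hairpin nor the control had a repeat library, so the spread in every p-value below comes from differences between the shRNA libraries. These differences are of the gene itself and, through limma, of the other genes tested, and include any difference between the hairpins.

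ERBB receptors are receptor tyrosine kinases that dimerise when a ligand of the EGF family binds. EGFR binds AREG, TGFA, EREG, BTC and HBEGF, ERBB4 binds the neuregulins and also HBEGF, BTC and EREG, and ERBB3, whose own kinase is weak, binds neuregulins and signals through its partner. ERBB2 has no known soluble ligand and is the preferred partner of the others. The ligands are made as membrane proteins and are released by proteases, among which ADAM17 cuts AREG, TGFA, EREG and HBEGF. In the breast, AREG is the estrogen-induced ligand through which ductal growth is relayed, and ERBB2 amplification defines a class of tumours to which T47D is not counted.

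ERINA is listed under the name LINC00992, to which RefSeq gives ERINA as a synonym. It stood at 5.21 FPKM with shRNA1, 8.91 FPKM with shRNA2 and 63.4 FPKM in the control, so the labelled knockdown was seen in both libraries. Depth was estimated at 32000000 fragments with shRNA1, 32500000 with shRNA2 and 31300000 in the control. The estimate used genes with 1 annotated transcript whose values fell at the level of a single fragment. That level was sought within the same fixed range of depths for each library, which bounds the estimate. All 9 luminal markers checked were above the filter, and their summed level was 10196, 8823 and 8509 FPKM with shRNA1, with shRNA2 and in the control. They did not move together: 3 were lower and 3 higher with both shRNAs, and 3 were mixed. KRT19 was at 5210 and 4281 FPKM in knockdown and 3152 FPKM in the control, and CDH1 at 151 and 189 FPKM against 234 FPKM. The 4 leukocyte and 3 endothelial markers were all below the filter, with sums of at most 0.361 and 0.0437 FPKM. Of 4 stromal markers 2 were measured and the sum was 3.75 and 4.83 FPKM in knockdown and 6.77 FPKM in the control. Of these 2, COL1A1 was lower (1.65 and 2.10 FPKM in knockdown, 5.16 FPKM in the control) and VIM higher (2.06 and 2.70 FPKM in knockdown, 1.47 FPKM in the control), and their part in the results was not tested. Of 4 basal markers 1 was measured, with sums of 2.14, 2.57 and 2.35 FPKM.

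The 3 ligand genes above the filter, of which HBEGF passed it only through its control value, were all lower with both shRNAs. With EGFR they made 4 of the 7 tested members lower with both, and ERBB2 and ERBB4 made 2 higher with both, beside 42.6% and 42.4% of all genes tested. AREG, the gene of amphiregulin, was at 72.2 FPKM with shRNA1 and 86.6 FPKM with shRNA2, against 170.0 FPKM in the control. Its mean was 79.4 ± 10.1 FPKM in knockdown (SD, n = 2), 2.14-fold below the control. The deposited confidence interval ran from 46.8 to 97.7 FPKM with shRNA1, wholly below the control interval of 112 to 228 FPKM, whereas that with shRNA2, from 56.5 to 117 FPKM, reached just into it. Here and below, fewer cells making a transcript and less transcript per cell cannot be told apart in bulk RNA.

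TGFA, the gene of transforming growth factor alpha, moved most among the 7. It was at 3.77 FPKM with shRNA1 and 4.80 FPKM with shRNA2, against 11.3 FPKM in the control, and its mean of 4.29 ± 0.727 FPKM in knockdown (SD, n = 2) was 2.63-fold lower. Again the interval with shRNA1 (1.82 to 5.73 FPKM) lay below that of the control (5.96 to 16.6 FPKM), and that with shRNA2 (2.50 to 7.10 FPKM) overlapped it. HBEGF, the gene of heparin-binding EGF-like growth factor, was near the filter. It passed only through its control value, so its lower level in knockdown is partly set by the filter. It stood at 0.817 FPKM with shRNA1 and 0.985 FPKM with shRNA2, against 2.03 FPKM in the control, a mean of 0.902 ± 0.119 FPKM (SD, n = 2) and 2.25-fold lower. Its intervals of 0.209 to 1.43 and 0.268 to 1.70 FPKM in knockdown both overlapped that of the control, 0.855 to 3.20 FPKM. HBEGF rested on few fragments: about 62, 76 and 151 with shRNA1, with shRNA2 and in the control if all came from its longest annotated transcript, against about 2870, 3486 and 6593 for AREG.

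**Figure D1:**
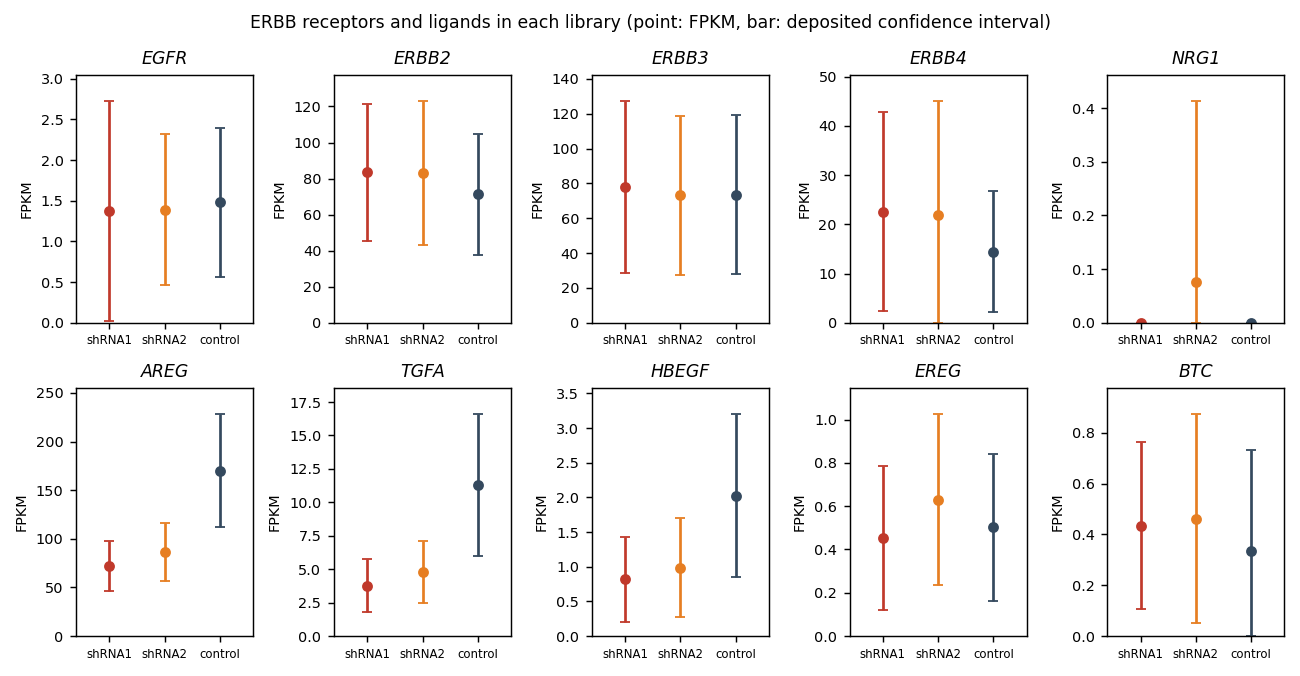
FPKM of the 10 genes with shRNA1, with shRNA2 and in the control, each point 1 library and each bar its deposited confidence interval; every axis starts at 0 and has its own scale. AREG, TGFA and HBEGF lie below the control in both knockdown libraries, ERBB4 lies above it, and the intervals of EGFR, ERBB2, ERBB3, ERBB4, EREG and BTC overlap widely between libraries.

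By limma over all 13112 genes above the filter, none of the 7 tested members passed a Benjamini-Hochberg adjusted p of 0.05 (0 higher and 0 lower), where the background was 0.0839% of genes called higher and 0.267% called lower. At an unadjusted p under 0.05 there were 5 of the 7 (AREG, TGFA, HBEGF, ERBB4 and ERBB2), beside 29.7% of all genes tested. The log2 change of AREG was -1.10 (SE 0.14, adjusted p = 0.0829 by limma), that of TGFA -1.31 (SE 0.19, adjusted p = 0.0831) and that of HBEGF -0.85 (SE 0.21, adjusted p = 0.110). These changes are on the log2(FPKM + 0.5) scale, which understates that of a low gene such as HBEGF. On the same scale LINC00992, the RNA knocked down, changed by -3.12, and it did not pass this fit either. Among the 13112 genes TGFA ranked 126th from the lowest change, AREG 220th and HBEGF 464th. HBEGF reached the filter only through its control value, so its place among the 5 and its rank are partly set by the filter.

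The call depended on which genes were tested together. With the 11546 protein-coding genes tested alone, the 3 ligands passed as lower, at limma adjusted p (Benjamini-Hochberg) of 0.00453 for AREG, 0.00650 for TGFA and 0.0397 for HBEGF. In that fit 11.3% of genes were called lower and 7.11% higher, so a call in it is common. Over all settings tried the adjusted p of limma ranged from 0.00453 to 0.238 for AREG, from 0.00650 to 0.239 for TGFA and from 0.0397 to 0.245 for HBEGF, while the log2 change stayed negative in each of them. By size, TGFA and HBEGF, the latter above the filter only through its control value, were at least 2-fold lower with both shRNAs. This held for 1.99% of genes above the filter. AREG missed that limit with shRNA2, where the control was 1.96-fold higher. The control FPKM of the 3 ligands lay above the upper bounds of both knockdown libraries, as in 5.4% of genes, but for 0 of the 7 members were both knockdown intervals clear of the control interval, beside 0.221% of genes with both below it and 0.0839% with both above.

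The promoters of the ligands are shown because their genes were lower together or, for EREG, lie beside one that was. The windows run from 250 bases before to 50 after a RefSeq start (GRCh38.p14), read 5′ to 3′ on the gene's strand. They lie at chr4:74444886-74445185 on the plus strand for AREG, chr2:70553777-70554076 on the minus strand for TGFA, chr5:140346554-140346853 on the minus strand for HBEGF and chr4:74364895-74365194 on the plus strand for EREG. Capitals mark matches to the motifs searched.
AREG: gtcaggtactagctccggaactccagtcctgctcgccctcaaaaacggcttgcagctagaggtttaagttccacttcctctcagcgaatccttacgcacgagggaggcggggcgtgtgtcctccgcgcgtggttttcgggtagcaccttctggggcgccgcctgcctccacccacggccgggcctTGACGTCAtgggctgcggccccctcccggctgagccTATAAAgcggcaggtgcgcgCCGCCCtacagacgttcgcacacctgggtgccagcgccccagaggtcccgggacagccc
TGFA: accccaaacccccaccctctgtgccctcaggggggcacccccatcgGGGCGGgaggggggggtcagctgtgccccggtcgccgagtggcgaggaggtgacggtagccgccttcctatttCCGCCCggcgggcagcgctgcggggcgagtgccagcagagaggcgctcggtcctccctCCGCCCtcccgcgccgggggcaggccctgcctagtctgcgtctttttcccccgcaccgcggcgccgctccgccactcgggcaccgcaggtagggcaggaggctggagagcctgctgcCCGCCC
HBEGF: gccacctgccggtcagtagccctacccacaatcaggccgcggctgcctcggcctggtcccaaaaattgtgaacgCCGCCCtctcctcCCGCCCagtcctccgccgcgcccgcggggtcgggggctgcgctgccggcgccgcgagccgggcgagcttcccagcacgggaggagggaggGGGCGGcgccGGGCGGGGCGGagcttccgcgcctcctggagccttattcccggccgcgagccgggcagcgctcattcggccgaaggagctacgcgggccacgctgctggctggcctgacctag
EREG: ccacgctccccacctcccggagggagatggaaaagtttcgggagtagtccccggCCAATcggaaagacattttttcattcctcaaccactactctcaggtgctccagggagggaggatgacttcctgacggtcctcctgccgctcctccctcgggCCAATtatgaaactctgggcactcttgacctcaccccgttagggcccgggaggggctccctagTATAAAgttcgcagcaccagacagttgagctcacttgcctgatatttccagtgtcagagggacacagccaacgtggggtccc
The motifs, searched on both strands, were the cAMP response element TGACGTCA, the AP-1 site TGANTCA, the palindromic estrogen response element (half-sites GGTCA and TGACC with 3 bases between them), the GC box GGGCGG, the TATA box TATAAA and the CCAAT box CCAAT. AREG held 1 cAMP response element, beginning 65 bases before the start, with a TATA box at 29 and a GC box at 9 bases before it. No other window used for the members held that element, which 1.85% of the 35116 windows of all genes hold. TGFA held 4 GC boxes and HBEGF 5, 2 of which share a base, and neither held any other of these words, while 45.0% of all windows hold a GC box. A further RefSeq window of TGFA held none of the 6 words. EREG held a TATA box and 2 CCAAT boxes (in 11.5% and 34.6% of all windows). The estrogen response element, in 0.057% of all windows, was in none of the windows used for the members. The AP-1 site, in 7.71%, was in the window of ERBB2. For EGFR it was only in a further window at chr7:55109589-55109888, and not in the one at the gene's start. A match is a word in the sequence and not evidence of binding. The windows used came from 8 of the 10 genes, and no window of ERBB3 or NRG1 was used.

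The 3 member ligands below the filter were too low to be compared closely with AREG. EREG, the gene of epiregulin, was at 0.453 FPKM with shRNA1 and 0.630 FPKM with shRNA2, on either side of the control at 0.502 FPKM. BTC, the gene of betacellulin, was at 0.435 and 0.462 FPKM with shRNA1 and shRNA2, against 0.333 FPKM in the control. All intervals of each gene overlapped, the values rested on about 29 to 95 fragments if all came from the longest annotated transcript, and in limma with no filter on low genes the adjusted p (Benjamini-Hochberg) was 0.866 for EREG and 0.334 for BTC. NRG1, the founding neuregulin and a ligand of ERBB3 and ERBB4, was listed at 0 with shRNA1 and in the control and at 0.0760 FPKM with shRNA2, with an interval of 0 to 0.413 FPKM. At this depth NRG1 was thus hardly detectable in any of the 3 libraries.

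AREG, EREG and BTC lie in 1 cluster on chromosome 4 with EPGN, the gene of the ligand epigen. On GRCh38 the order is EPGN (74308473 to 74315307), EREG (74365143 to 74388751), AREG (74445134 to 74455009) and BTC (74744759 to 74794686). AREG starts 56.4 kb beyond the end of EREG, yet was 159-fold above it with shRNA1, 137-fold with shRNA2 and 339-fold in the control. EPGN, the gene before EREG, was at 0.395 and 0.316 FPKM with shRNA1 and shRNA2 and at 1.67 FPKM in the control, below the filter and so without a test. Its deposited intervals all started at 0 and overlapped, reaching 0.986 and 0.890 FPKM in knockdown and 3.63 FPKM in the control. Next to the cluster, MTHFD2L, a mitochondrial folate enzyme gene, was at 4.80 and 3.29 FPKM in knockdown and 2.12 FPKM in the control (limma adjusted p of 0.158, Benjamini-Hochberg). RCHY1, a ubiquitin ligase gene that shares exon sequence with THAP6 on the other strand, was at 17.5 and 15.4 FPKM in knockdown and 12.2 FPKM in the control (limma adjusted p of 0.140, Benjamini-Hochberg). PARM1 and the 5 CXCL chemokine genes listed were below the filter. In this stretch, levels with both shRNAs were thus below the control for AREG and EPGN and above it for BTC, MTHFD2L and RCHY1, while those of EREG lay on either side of it.

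Among the receptors, ERBB4 was higher in knockdown and the others stayed close to the control. ERBB4 was at 22.6 FPKM with shRNA1 and 22.0 FPKM with shRNA2, against 14.4 FPKM in the control. Its mean of 22.3 ± 0.431 FPKM (SD, n = 2) was 1.55 times the control, a log2 change of 0.61 (SE 0.09) with a limma adjusted p (Benjamini-Hochberg) of 0.0837. The knockdown values differed by less than their distance from the control, but the deposited intervals were wide, 2.35 to 42.9 and 0 to 45.1 FPKM in knockdown and 2.11 to 26.7 FPKM in the control. With protein-coding genes tested alone ERBB4 passed as higher at 0.0132 (limma, Benjamini-Hochberg), and over all settings its adjusted p ran from 0.0132 to 0.227.

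ERBB2 was at 83.5 FPKM with shRNA1 and 82.9 FPKM with shRNA2, against 71.2 FPKM in the control. That is a mean of 83.2 ± 0.394 FPKM (SD, n = 2), 1.17 times the control, with a log2 change of 0.22 (SE 0.08) and a limma adjusted p (Benjamini-Hochberg) of 0.164. ERBB2 did not pass in any setting, the lowest adjusted p being 0.122. ERBB3 was at 77.9 and 73.2 FPKM with shRNA1 and shRNA2, around the control at 73.6 FPKM. Its log2 change was 0.04 with a 95% interval of -0.21 to 0.28 in limma (adjusted p of 0.797), and it became -0.04 with libraries scaled to the same total. EGFR was low in each library, at 1.37 and 1.39 FPKM with shRNA1 and shRNA2 and 1.48 FPKM in the control, and its 95% limma interval of the log2 change ran from -0.61 to 0.46 (adjusted p of 0.807). The interval for EGFR thus includes both lower and higher levels, and its deposited intervals reached up to 98.8% of the FPKM on either side.

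Reads in exon sequence that a receptor gene shares with a neighbour cannot be assigned with certainty, since it is not given whether reads were counted by strand. ERBB2 shares 571 exonic bases with MIEN1 and 194 with PGAP3, both on the other strand of chromosome 17. MIEN1, the gene of a membrane protein co-amplified with ERBB2 in tumours, was at 53.5 and 51.2 FPKM in knockdown and 40.1 FPKM in the control. PGAP3, a gene of lipid anchor remodelling, was at 10.3 FPKM in both knockdown libraries and 7.43 FPKM in the control. ERBB3 shares 31 exonic bases with AC034102.2 on the same strand, which was at 29.3 and 34.9 FPKM in knockdown and 16.9 FPKM in the control. Of 14 listed genes around ERBB2, 8 were above the filter, of which 4 were higher and 4 lower with both shRNAs, with a median log2 change of -0.06. The farthest was PPP1R1B, the gene of the phosphatase inhibitor DARPP-32, at 2.12 and 2.15 FPKM in knockdown and 5.39 FPKM in the control (limma adjusted p of 0.0829, Benjamini-Hochberg). The stretch around ERBB2 thus showed no shared direction.

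Summed over their genes, ligand transcripts were lower in knockdown and receptor transcripts slightly higher. The 6 ligands summed to 77.7 FPKM with shRNA1, 93.5 FPKM with shRNA2 and 184 FPKM in the control. AREG made up 92.9%, 92.6% and 92.3% of that sum in the same order. TGFA made up 4.86%, 5.13% and 6.12%. The 4 receptors summed to 185 FPKM with shRNA1, 179.5 FPKM with shRNA2 and 161 FPKM in the control. ERBB2 and ERBB3 together took 87.1%, 87.0% and 90.1% of it, and ERBB4 took 12.2%, 12.3% and 8.97%. EGFR took less than any other receptor in each library, with 0.739%, 0.775% and 0.922%. AREG transcripts exceeded those of EGFR 52.7-fold with shRNA1, 62.3-fold with shRNA2 and 115-fold in the control.

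**Figure D2:**
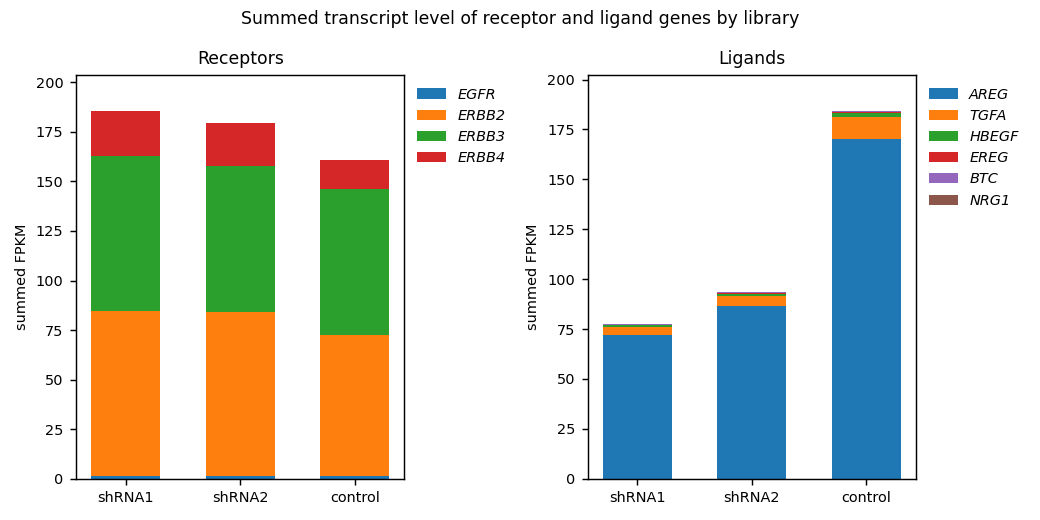
Summed FPKM of the 4 receptor genes (left) and the 6 ligand genes (right) with shRNA1, with shRNA2 and in the control, 1 library a bar. AREG fills at least 92.3% of each ligand bar, and the knockdown ligand bars reach 77.7 and 93.5 FPKM against 184 FPKM in the control.

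The order of levels differed between libraries at the top. AREG was highest of the 10 in the control, stood behind ERBB2 and ERBB3 with shRNA1, and was first with shRNA2. The intervals of these 3 genes overlapped with shRNA1 and with shRNA2, so their ranks there do not differ beyond the deposited error. In the control the AREG interval overlapped that of ERBB3 and was clear of that of ERBB2. In each library ERBB4 came next and then TGFA, and their intervals overlapped. HBEGF lay above EGFR in the control and below it in both knockdown libraries, with overlapping intervals each time. EREG, BTC and NRG1 came last, in that order.

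The 3 lower ligand genes were lowest where ERINA was lowest. AREG, TGFA and HBEGF were each farther below the control with shRNA1 than with shRNA2, as LINC00992 was. This order is common, because 72.0% of the 5181 protein-coding genes lower with both shRNAs had it. The log2 changes were -1.23 with shRNA1 and -0.97 with shRNA2 for AREG, -1.46 and -1.15 for TGFA, and -0.94 and -0.77 for HBEGF. For ERBB4 they were nearly the same, 0.63 with shRNA1 and 0.59 with shRNA2. The difference between hairpins has no replicate and was not tested.

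**Figure D3:**
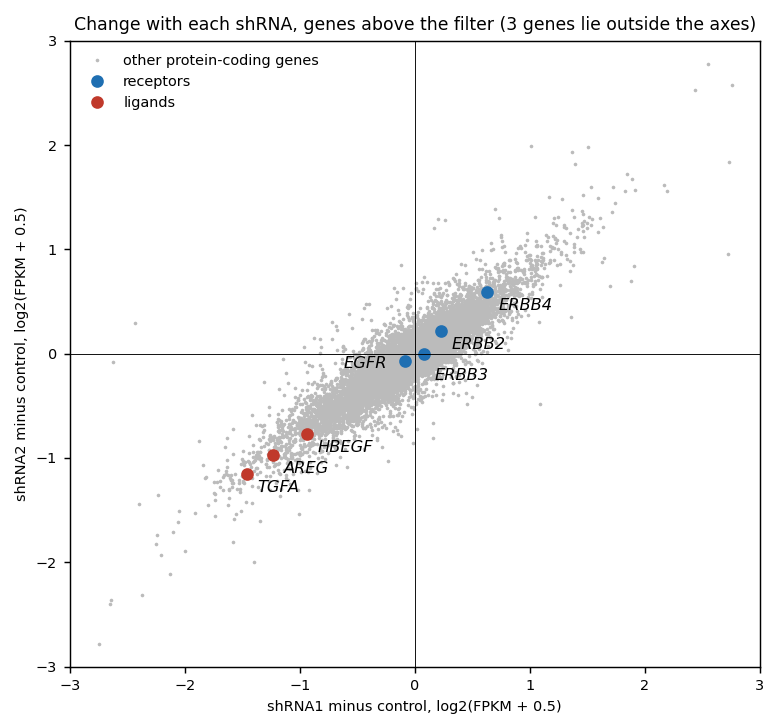
Log2 change of FPKM + 0.5 with shRNA1 (horizontal axis) and shRNA2 (vertical axis), each against the control, for the 11546 protein-coding genes above the filter (grey), the tested receptors (blue) and the tested ligands (red). TGFA (-1.46 and -1.15), AREG and HBEGF lie at the lower left edge of the cloud, ERBB4 (0.63 and 0.59) toward the upper right, and ERBB2, ERBB3 and EGFR near the centre; both axes share the control library, and 3 genes lie outside them.

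Genes with nearly the same pair of changes as the 2 members that moved most were named by distance on the log2 scale over those 2 changes, which rest on 3 libraries. Nearest to TGFA were SLC26A6, an anion exchanger gene (1.89 and 2.47 FPKM in knockdown, 6.13 FPKM in the control), PKMYT1, the gene of a kinase that inhibits CDK1 (6.24 and 7.95, against 18.4 FPKM), and DSN1, a kinetochore gene (11.3 and 14.3, against 32.9 FPKM). Nearest to AREG were NCOA3, the gene of a steroid receptor coactivator (10.1 and 12.3 FPKM in knockdown, 24.2 FPKM in the control), TIMELESS, a replication fork gene (8.08 and 9.56, against 19.3 FPKM), and UBE2Z, the gene of a ubiquitin-conjugating enzyme (18.5 and 22.2, against 43.3 FPKM). Such neighbours were few, 14 of 11545 genes within 0.1 of TGFA and 34 within 0.1 of AREG.

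Around the receptors and ligands, most listed genes that process the ligands had lower values with both shRNAs. Of 15 listed genes of shedding and export, 11 were above the filter. With both shRNAs 9 of them were lower and 1 higher, beside 42.6% and 42.4% of all genes tested. The 9 included ADAM9, which was close to the control (log2 change -0.05). The median log2 change of the 11 was -0.31 beside 0.0005 for all genes tested. None passed limma over all genes (0 higher, 0 lower). With protein-coding genes alone 3 passed as lower, where 11.3% of genes did. ADAM17, the sheddase of AREG and TGFA, was at 5.99 FPKM with shRNA1 and 6.36 FPKM with shRNA2, against 13.1 FPKM in the control (limma adjusted p of 0.0829 over all genes and 0.00641 over protein-coding genes, Benjamini-Hochberg). BACE1, a protease known in mice to cut NRG1, was at 4.68 and 4.56 FPKM in knockdown and 11.4 FPKM in the control (0.0813 and 0.00523). Both share exon sequence with genes on the other strand, ADAM17 with IAH1 and BACE1 with RNF214 and BACE1-AS. ADAM10, the sheddase of BTC and EGF, was nearer to the control, at 49.0 FPKM with both shRNAs against 60.2 FPKM. The other one that passed was CNIH1, whose fly homologue carries a TGFA-like ligand out of the endoplasmic reticulum, at 57.8 and 74.8 FPKM in knockdown and 122 FPKM in the control.

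Of the 5 other ligand genes 2 were above the filter. EGF, the founding ligand of EGFR, was at 3.75 and 3.96 FPKM with shRNA1 and shRNA2 and at 3.39 FPKM in the control, with a limma adjusted p (Benjamini-Hochberg) of 0.492. NRG4, a ligand of ERBB4, was at 0.733 and 1.51 FPKM in knockdown and 1.40 FPKM in the control. Its deposited intervals all started at 0 and reached 4.55 and 7.45 FPKM in knockdown and 6.59 FPKM in the control. NRG4 shares 1917 exonic bases with FBXO22 on the other strand (59.3 and 59.8 FPKM in knockdown, 55.2 FPKM in the control). Below the filter were EPGN, given above with its lower values in knockdown, and NRG2 and NRG3, which were at or near 0 in every library.

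Downstream of the receptors the lists were mixed. Of 20 adaptor genes, all above the filter, 8 were lower in both knockdown libraries and 9 higher (median log2 change 0.02). Among all genes tested these shares were 42.6% and 42.4%. With protein-coding genes alone 1 passed as lower and 2 as higher in limma, where 11.3% and 7.11% of genes did. EPS8, the gene of an EGFR substrate that acts on actin, was at 13.2 and 15.2 FPKM in knockdown and 28.9 FPKM in the control. GRB10, an adaptor gene of the insulin receptor family, was at 24.6 and 23.0 FPKM in knockdown and 17.4 FPKM in the control. GRB2, the adaptor that brings SOS to the activated receptor, was at 61.0 and 73.6 FPKM in knockdown and 88.2 FPKM in the control and did not pass in either fit.

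Of 21 genes of the PI3K and RAS to ERK entry steps 20 were above the filter. With both shRNAs 12 were lower and 6 higher, beside 42.6% and 42.4% of all genes tested. The median log2 change of the 20 was -0.23. With protein-coding genes alone 6 passed as lower and 1 as higher in limma, where 11.3% and 7.11% of genes did. None passed over all genes (0 higher, 0 lower). NRAS, a RAS GTPase gene, was at 5.89 and 7.83 FPKM in knockdown and 18.8 FPKM in the control, and both its knockdown intervals lay below that of the control. PIK3R1, the gene of a regulatory subunit of PI3K, was at 20.9 and 19.9 FPKM in knockdown and 13.1 FPKM in the control, with a limma adjusted p (Benjamini-Hochberg) of 0.0841 over all genes and 0.0140 over protein-coding genes. The kinase genes MAP2K1 (18.1 and 20.5 FPKM in knockdown, 28.1 FPKM in the control) and AKT1 (70.2 and 75.7, against 108 FPKM) were among the 6 lower, and were named after their values were seen.

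Negative regulators went both ways. Of 27 listed, 25 were above the filter, 7 lower and 13 higher with both shRNAs, beside 42.6% and 42.4% of all genes tested, with a median log2 change of 0.09. In limma 1 passed as higher over protein-coding genes alone, where 7.11% of genes did, and none over all genes (0 higher, 0 lower). That gene was SPRY1, an inhibitor of signalling from receptor tyrosine kinases to RAS, at 4.04 and 4.52 FPKM in knockdown and 2.58 FPKM in the control. EPS15, an endocytic adaptor gene of EGFR, was at 8.42 and 9.25 FPKM in knockdown and 12.2 FPKM in the control. LRIG1, whose product lowers ERBB receptor levels, was at 25.4 and 22.0 FPKM in knockdown and 17.5 FPKM in the control, and ERRFI1, an inhibitor of the EGFR kinase, at 12.2 and 12.8 FPKM in knockdown and 15.3 FPKM in the control. Neither LRIG1 nor ERRFI1 passed in either fit.

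Of 13 genes of receptor partners 11 were above the filter, with a median log2 change of -0.12. With both shRNAs 6 were lower and 4 higher, beside 42.6% and 42.4% of all genes tested. Limma called none over all genes (0 higher, 0 lower). Over protein-coding genes alone it called 4 lower and 1 higher, where 11.3% and 7.11% of genes were called. ITGA6, an integrin subunit that pairs with ITGB4, was at 4.55 and 5.58 FPKM in knockdown and 10.8 FPKM in the control. PTK6, the gene of a cytoplasmic tyrosine kinase that binds ERBB receptors in breast tumours, was at 6.14 and 7.17 FPKM in knockdown and 13.2 FPKM in the control. HSP90AA1, the gene of a chaperone on which the ERBB2 protein depends, was at 374 and 393 FPKM in knockdown and 539 FPKM in the control, and IGF1R, another receptor tyrosine kinase, at 22.8 and 20.3 FPKM in knockdown and 14.6 FPKM in the control.

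**Figure D4:**
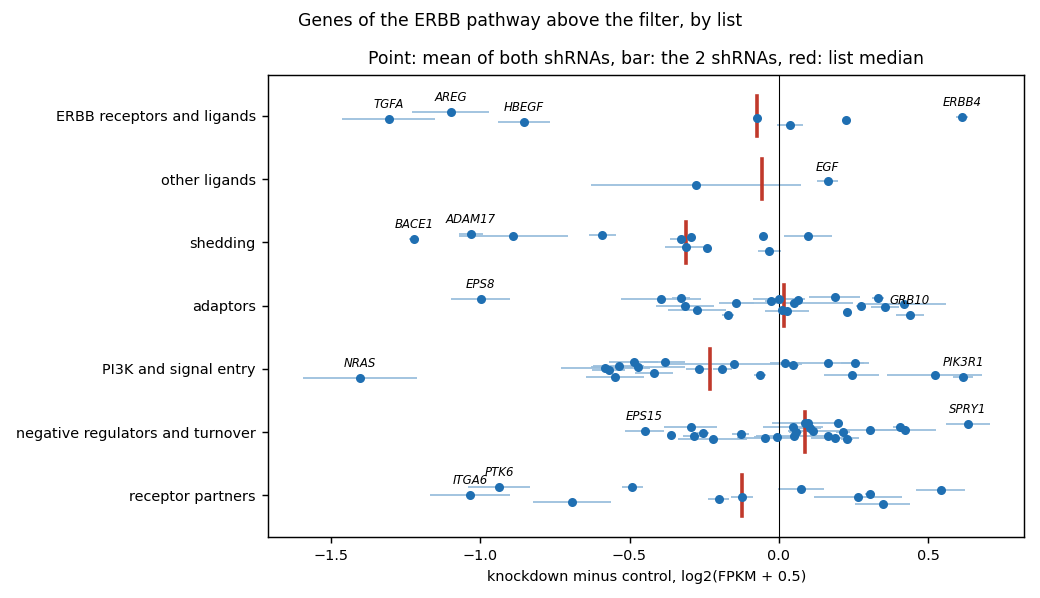
Log2 change of FPKM + 0.5 in knockdown against the control for each gene above the filter, grouped by list; points are the mean of both shRNAs, bars join the 2 shRNAs and red lines are list medians. The shedding list (median -0.31) and the PI3K and signal entry list (median -0.23) lie left of 0, and the adaptors (0.02) and negative regulators (0.09) near it.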

How the data were processed

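RNA of 3 T47D libraries was measured by sequencing. The authors deposited FPKM per gene, each with confidence bounds, per the file headers. The confidence level, the annotation, any scaling between libraries and the program behind the values were not given in the sources used here. STAR, RSEM and GRCh38 are named, without version, in the submitters' processing notes. Deposited starts count from 0 and were raised by 1. Gene types and lengths came from GENCODE release 29, which held 57435 of the 58039 genes, and promoters from RefSeq (GRCh38.p14).

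Since FPKM are not counts, knockdown (2 libraries) was compared with control (1) by limma 3.58.1 in R 4.3.3 on log2(FPKM + 0.5), with a mean-variance trend, over genes whose mean FPKM reached 1, with Benjamini-Hochberg adjustment at 0.05. The fit has 1 residual degree of freedom a gene, to which limma adds prior degrees of freedom estimated from all genes tested. These were 2.884 in the main fit and 6.395 with protein-coding genes alone. The control is assumed to vary like the shRNA libraries. The fit was also run on simulated data, but there the control varied like the shRNA libraries, so that assumption was not tested. Tables used Python 3.11.15, pandas 2.3.3 and numpy 2.4.6, and figures matplotlib 3.10.9. No pair of libraries shared a nonzero FPKM. The depth estimate assumes unscaled values, and fragment numbers cover counting error only.

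The 10 members, the gene lists and the tests were chosen with earlier results of these data known. Named from each list were the 2 protein-coding genes above the filter with the largest mean change in the same direction with both shRNAs, and any called by limma over all genes. For the 2 members that moved most, the 3 nearest genes were named. Other genes, such as ADAM10, CNIH1, GRB2, AKT1, LRIG1, ERRFI1, HSP90AA1 and IGF1R, were named after their values were seen.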

Additional observations from a re-analysis of the deposited data

How the results depend on the processing

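The log2 changes of the 7 tested members kept their direction in every setting tried, except that of ERBB3, which was 0.04 and became -0.040 with libraries scaled to the same total and -0.0080 without the shRNA1 library (0.081 without the shRNA2 library). With the same total, the median of all genes shifts by -0.12 with shRNA1 and -0.03 with shRNA2. The number of members passing limma (0 higher, 0 lower) became 1 higher and 2 lower with the robust option of eBayes and 1 higher and 3 lower with protein-coding genes tested alone, and stayed at 0 in the other settings; the cause was not tested. Over all genes, 11 were called higher and 35 lower. The counts were 0 higher and 0 lower with no filter (5039 at an unadjusted p under 0.05), 65 and 110 with the same total, 430 and 595 with the robust option, and 821 and 1299 with protein-coding genes alone, and 6 were higher without the trend. LINC00992 passed limma with the same total and with the robust option (Benjamini-Hochberg adjusted p of 0.0330 and 0.0374). No paired analysis was possible because the control group has 1 library and the groups compared share fewer than 2 replicate numbers. With 1 control library, its own state and the effect of knockdown cannot be told apart.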
